A study of Homo sapiens with 12 samples.

Results

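The comparison described here asks what full-length NPM1c, the mutant nucleophosmin of acute myeloid leukaemia, did to gene expression when it was put back into leukaemia cells that had lost their own. It was chosen by sample labels alone and takes in 6 of the 12 libraries of the study, 3 from cells given full-length NPM1c fused to mCherry (FL-NPM1c) and 3 from cells given mCherry alone. All 6 came from OCI-AML3, an acute myeloid leukaemia cell line, of genotype NPM1c-degron (NPM1WT/Degron in the series' design text): the line's NPM1c carries a tag through which the small molecule dTAG-13 sends it for degradation, beside an untagged wild-type NPM1. The cells were transduced with lentiviral particles, received 500 nM dTAG-13 after 48 hours, and were sorted for mCherry fluorescence 24 hours after that. The other 6 libraries were used to set levels side by side and for 1 further test. They are 3 degron libraries with the C-body null construct (Cbodynull-mCherry) plus dTAG-13 and 3 degron libraries titled NTC_DMSO, whose title says DMSO and whose treatment label says dTAG. The labels name neither separate cultures nor clones, so the p-values rest on a spread between libraries that may be technical only. The cell line field runs OCI-AML9 to OCI-AML14 over the FL-NPM1c and mCherry libraries, whereas the treatment protocol names OCI-AML3 throughout.

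Nucleophosmin is a chaperone that normally shuttles between nucleolus and cytoplasm. The leukaemic mutation removes its nucleolar retention signal and adds an export signal, so that most of the protein sits in the cytoplasm, while a part binds chromatin. NPM1-mutated leukaemias are known for high expression of HOXA and HOXB cluster genes and of MEIS1, the developmental transcription factors that keep blood progenitors self-renewing, and loss of NPM1c in such cells is known to lower HOX genes and to start myeloid differentiation. C-bodies are nuclear condensates in which NPM1c takes part; the labels do not say which change makes the C-body null construct.

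Total counts ran from 30519165 (mCherry replicate 3) to 59925564 (FL-NPM1c replicate 3) per library. Myeloid markers were present in all 6 libraries: CD33 at 64.8 to 79.8 CPM (counts scaled to a library of 1e6), SPI1, the master factor of myeloid cells, at 82.9 to 121, CEBPA at 159.9 to 248.5, and LYZ at 2520.4 to 2918. KIT had 0 counts, MPO stood at 1.08 to 1.72 CPM and the progenitor marker CD34 had 33 counts over the 6 libraries. The T cell markers CD3D, CD3E, CD3G and CD2, the erythroid HBB and the epithelial EPCAM, KRT19 and CDH1 had 0 counts in all 6, whereas NCAM1 (CD56), a marker of NK cells that some leukaemias carry, had 35514.

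The add-back was read first at its own gene. NPM1 (chr5:171387116-171411137, hg38) stood at 1662, 1608 and 1684 CPM with FL-NPM1c and at 1309.5, 1059 and 1387 CPM with mCherry. The groups did not overlap, and NPM1 was higher by 0.40 ± 0.09 on the log2 scale (edgeR quasi-likelihood test over all genes, Benjamini-Hochberg adjusted p = 0.0073); the call was lost when FL-NPM1c replicate 1 (adjusted p = 0.064) was left out. This count adds transgene reads to reads of the endogenous gene, whose mRNA the degron leaves in place. NPM1P26, a processed pseudogene of NPM1 on chromosome 10, went from 0.193, 0.257 and 0.368 CPM with mCherry to 7.78, 5.99 and 7.84 CPM with FL-NPM1c, and stood at 12.8, 8.70 and 10.7 CPM with the C-body null construct and 0.223, 0.30 and 0.0793 in NTC_DMSO. The pseudogene was thus high in the 6 libraries that carry an NPM1 construct and low in the 6 that do not, with no overlap; reads of the transgene and of the pseudogene cannot be told apart in gene counts.

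The mCherry libraries spread more than the others, with a biological coefficient of variation of 0.134 against 0.0714 for FL-NPM1c, and this spread followed the GC content of transcripts. Among protein-coding genes, split into 5 bins of equal size, the level of the highest GC bin minus that of the lowest, relative to the mean over the 6 libraries, was 0.33, 0.29 and 0.08 (log2) in FL-NPM1c replicates 1 to 3 and -0.19, 0.12 and -0.64 in mCherry replicates 1 to 3. mCherry replicate 3 was the extreme library, and mCherry replicate 2 stood with the FL-NPM1c libraries. The calls followed the same gradient. From the lowest to the highest GC bin the share of genes called higher went 1.48, 3.61, 7.12, 16.4 and 20.99%, and the share called lower went 18.6, 15.3, 10.7, 5.20 and 1.77%. A fit with GC-corrected offsets, chosen after seeing the data, was therefore run beside the main one. It removes from each library any trend of level with GC content whatever its cause, and it left 10.5 to 14.5% higher and 12.2 to 13.9% lower in every bin. Of the genes called in the main fit, 79.0% of those higher and 84.2% of those lower were called in the corrected fit too, as were 244 of 264 and 239 of 242 of those changed at least 2-fold. It called 9.52% of all tested genes higher and 10% lower, and the counts of each list under it, in the order of the main ones, are given beside them.

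**Figure D1:**
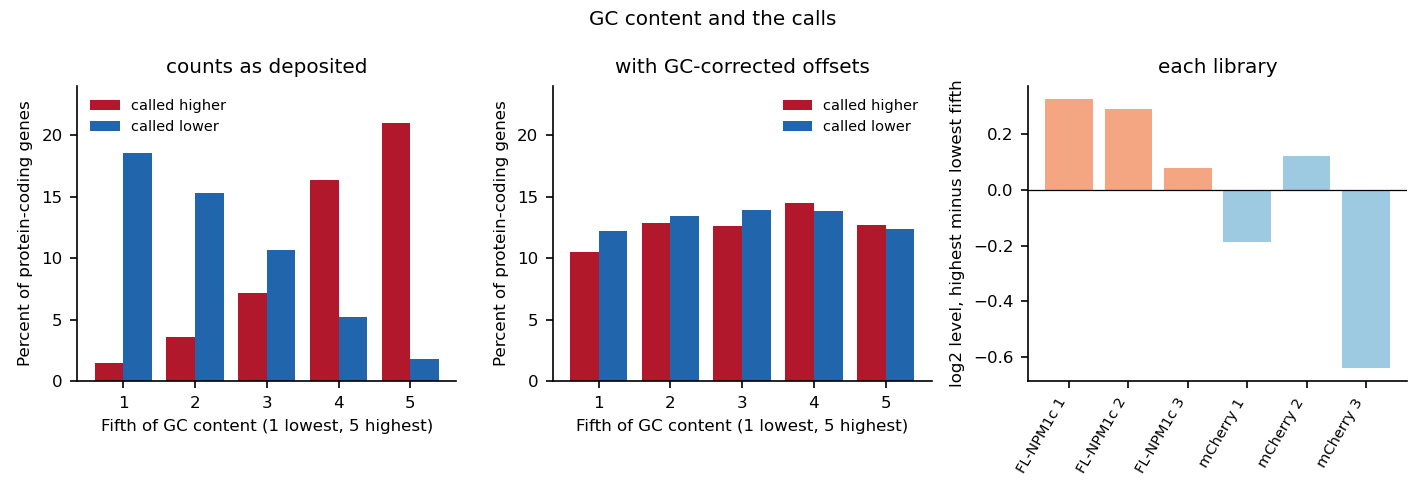
Left and middle, percent of protein-coding genes called higher (red) and lower (blue) with FL-NPM1c in 5 bins of transcript GC content, from the counts as deposited and with GC-corrected offsets. Right, median log2 level of the highest GC bin minus that of the lowest in each library, each gene taken relative to its mean over the 6 libraries; the as-deposited shares run from 1.48 to 20.99% higher across the bins, and mCherry replicate 3 lies lowest at -0.64.

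Of 24064 genes tested, 1823 (7.58%) passed as higher in FL-NPM1c libraries and 1912 (7.95%) as lower, at adjusted p under 0.05; 264 (1.1%) and 242 (1.01%) changed at least 2-fold. The 3 libraries of each group did not overlap in 16.4% of tested genes on the higher side and 16% on the lower. Most changes were small: the median size was 0.50 on the log2 scale for genes called higher and 0.47 for genes called lower. Without mCherry replicate 2 the counts were 3634 of 24565 (14.8%) and 3200 (13%), and without FL-NPM1c replicate 2 they were 717 and 904. Calls that held with each of the 6 libraries left out numbered 505 higher and 767 lower. List counts moved too: where leaving out 1 library moved a count of 3 or more by over 1.5 times, the lowest or highest count and its library stand beside the list. Genes named below belong to these calls unless the library that ends the call is named.

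**Figure D2:**
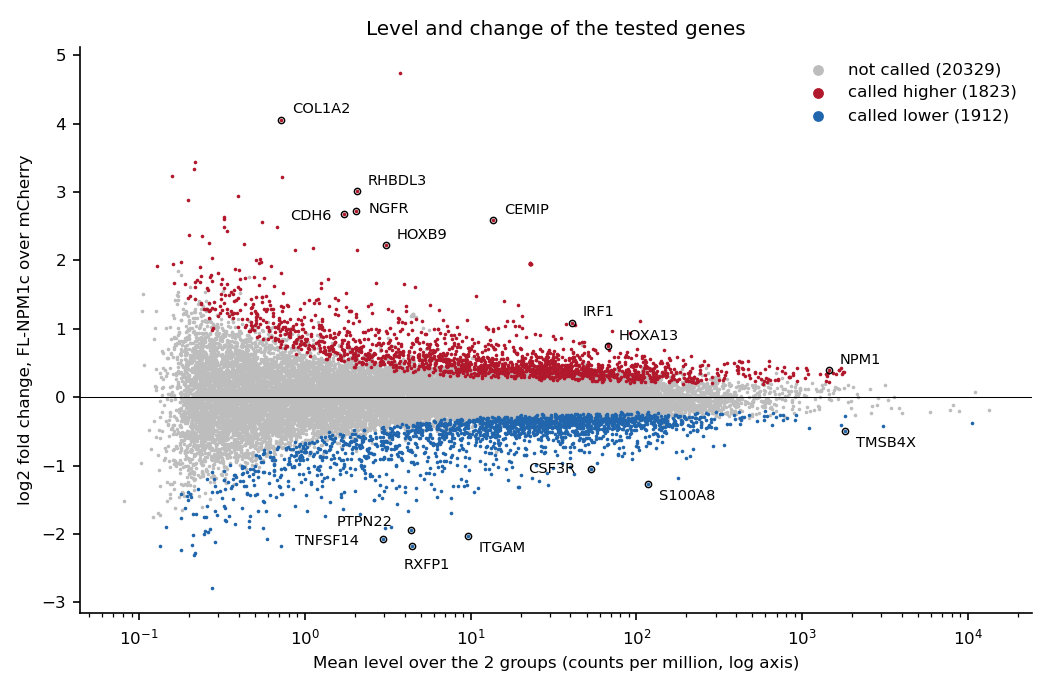
Each point is a tested gene; the horizontal axis is its mean level over both groups (CPM, log axis) and the vertical axis its log2 fold change, FL-NPM1c over mCherry. Red points were called higher (1823) and blue points lower (1912) at adjusted p under 0.05; CEMIP (2.58) and ITGAM (-2.02) are among the genes ringed.

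HOX genes rose in both expressed clusters, and the rise was not even along them. Of the HOXA cluster list 5 of 7 tested members were higher and 0 lower (median 0.58), of the HOXB list 6 of 9 and 0 (median 0.64), and of the noncoding RNAs of the clusters 6 of 8 and 0 (median 0.52), against 7.58% higher over all genes and an all-gene median of 0.00. The GC-corrected fit gave the same 3 pairs of counts, and no member was lower in any fit with 1 library left out. None of the 18 HOXC and HOXD list members had enough counts to be tested.

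HOXA13, the last gene of its cluster and normally a factor of limb and hindgut, stood at 79.7, 85 and 89.3 CPM with FL-NPM1c and at 50.9, 46.7 and 54 CPM with mCherry. It rose by 0.75 ± 0.09 (adjusted p = 4.4e-05). HOXA10 (chr7:27170591-27180261), a progenitor factor, went from 60, 65.1 and 62.2 to 91.2, 96.2 and 92.7 CPM, a rise of 0.58 ± 0.07 (adjusted p = 5.0e-05). All FL-NPM1c libraries lay above all mCherry libraries for both. HOXA9, the cluster gene most tied to this leukaemia, did not pass: it stood at 41.3, 47.7 and 46 CPM with FL-NPM1c and at 44, 39.2 and 45.6 with mCherry, overlapping, with a difference of 0.07 ± 0.09 (adjusted p = 0.63). HOXA9 in NTC_DMSO was at 60.6 ± 5.20 CPM (SD, n = 3). At the near end of the cluster HOXA5 (2.42 ± 0.43, adjusted p = 0.0016) and HOXA3 (2.89 ± 0.58, adjusted p = 0.0037) had the larger fold changes but levels of only 0.579 ± 0.0455 and 0.35 ± 0.0399 CPM with FL-NPM1c, and their folds depend on few counts. HOTAIRM1, a noncoding RNA of the cluster, did not pass (-0.14 ± 0.15, adjusted p = 0.57), whereas HOTTIP, the noncoding RNA beside HOXA13, rose by 0.49 ± 0.08 (adjusted p = 8.1e-04).

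HOXB9 (chr17:48621159-48626356) had the largest rise of the well-measured HOX genes, from 1.24, 1.14 and 0.869 CPM with mCherry to 5.62, 4.80 and 4.94 CPM with FL-NPM1c (2.22 ± 0.15, adjusted p = 2.3e-07). Its neighbour HOXB8, a factor whose overexpression blocks myeloid differentiation, went from 1.08, 1.05 and 0.869 to 2.29, 2.94 and 2.33 CPM (1.32 ± 0.16, adjusted p = 7.0e-05). HOXB3 rose from 17.2, 19.8 and 17.5 to 28.2, 28.8 and 28.4 CPM (0.64 ± 0.08, adjusted p = 1.1e-04) and HOXB2 by 0.81 ± 0.12 (adjusted p = 3.9e-04). HOXB4 and HOXB5, which lie between HOXB3 and HOXB8 and were looked up after their values were seen, did not pass: HOXB4 was at 8.54 ± 0.165 CPM with FL-NPM1c and 8.23 ± 0.473 with mCherry, and HOXB5 at 1.41 ± 0.0631 and 1.61 ± 0.111 CPM (SD, n = 3). HOXB-AS3 rose by 0.90 ± 0.12 (adjusted p = 9.2e-05) and HOXA10-AS by 0.64 ± 0.09 (adjusted p = 1.6e-04). The strand setting of the counting is not given in the sources used here, so reads of these antisense RNAs and of the genes they overlap cannot be told apart.

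Tested genes that start within 500 kb of a cluster were read by the same rule. Next to the HOXA cluster 1 of 7 neighbours was higher and 1 lower, and next to the HOXB cluster 2 of 16 were higher and 0 lower. The 7 include the short RNA records RF02040 to RF02043, which lie within HOTTIP. The higher record beside HOXA was RF02043, so it is no gene apart from HOTTIP. Its call was lost when FL-NPM1c replicate 1 or 2 or mCherry replicate 3 was left out. The lower gene beside HOXA was SKAP2, a leukocyte adaptor protein (-0.40 ± 0.09, adjusted p = 0.0078). Around the HOXC cluster, itself not expressed, 10 of 31 neighbours were lower and 0 higher, against 7.95% lower and 7.58% higher over all genes. Among them were GPR84, a fatty acid receptor of phagocytes, which went from 11.5, 13 and 11.3 CPM to 5.42, 4.78 and 4.30 CPM (-1.31 ± 0.12, adjusted p = 5.3e-06), and NFE2, an erythroid and myeloid transcription factor, which went from 17.2, 17.8 and 13.8 to 8.78, 8.19 and 7.83 CPM (-0.98 ± 0.11, adjusted p = 2.5e-05). CBX5, the gene of heterochromatin protein 1 alpha, fell by 0.40 ± 0.08 (adjusted p = 0.0047). The 10 are not all separate: the antisense records AC068789.1 and AC023509.2 lie within NCKAP1L and ATF7, and reads of each pair cannot be told apart. The calls of both pairs, ZNF385A and PDE1B were lost when FL-NPM1c replicate 2 was left out.

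**Figure D3:**
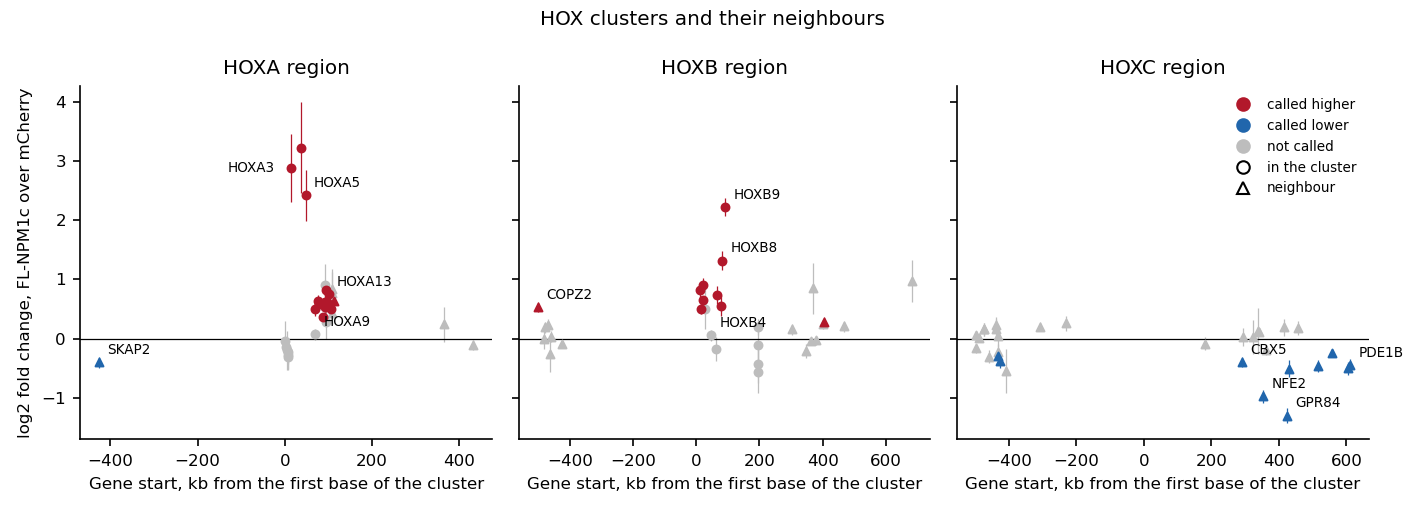
log2 fold change, FL-NPM1c over mCherry, with its standard error, of tested genes in and within 500 kb of the HOXA, HOXB and HOXC clusters, by the distance in kb of the gene's first base from the first base of the cluster. Circles lie in the cluster and triangles outside it; HOXB9 (2.22) is the highest in HOXB, HOXB4 (0.05) was not called, and the called neighbours of HOXC, where no cluster gene was tested, are all lower.

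Menin and the MLL methyltransferase keep HOX and related genes active in this leukaemia, and a list of their targets outside HOX was read next. Of its 21 tested members 5 were higher and 1 lower, with a median of 0.15 (10 and 1 GC-corrected; 3 lower without mCherry replicate 2). The median GC content of the list is 44.1%. CDKN2C, a cyclin-dependent kinase inhibitor, rose from 75.7, 89.5 and 70.7 to 121, 126 and 117 CPM (0.62 ± 0.09, adjusted p = 2.1e-04), the adhesion receptor ADGRA3 by 0.60 ± 0.07 (adjusted p = 3.5e-05) and the chromatin organiser SATB1 by 0.52 ± 0.07 (adjusted p = 2.0e-04). The receptor kinase FLT3 was higher by 0.39 ± 0.09 (adjusted p = 0.0084), a call that was lost when mCherry replicate 1 (adjusted p = 0.058) was left out. MEIS1, the cofactor of HOXA9, was at 15.3, 16.3 and 15.6 CPM with FL-NPM1c and 13.7, 12.2 and 13.7 with mCherry. Its groups did not overlap, but the difference of 0.25 ± 0.09 did not pass (adjusted p = 0.059); with GC correction it was 0.40 ± 0.07 (adjusted p = 4.0e-04). The other 7 tested MEIS and PBX genes did not pass either; with GC correction 2 of the 8 were higher. Among the complexes themselves 2 of 27 members were higher and 3 lower (1 and 3 GC-corrected; 7 higher without mCherry replicate 2, 1 lower without FL-NPM1c replicate 2 or mCherry replicate 3). In the main fit that is 7.41% and 11.1%, against 7.58 and 7.95% over all genes. The elongation factor ELL2 fell from 18.6, 15.8 and 21 to 9.00, 10.1 and 10.4 CPM (-0.90 ± 0.12, adjusted p = 1.2e-04).

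Outside HOX, the called genes of largest rise that reach 2 CPM were of several kinds. CEMIP (chr15:80779343-80951776), which binds and degrades hyaluronan, went from 3.26, 4.65 and 3.74 CPM with mCherry to 23.5, 21.9 and 25 CPM with FL-NPM1c (2.58 ± 0.14, adjusted p = 3.9e-08). Both control levels were low: NTC_DMSO stood at 3.97, 4.70 and 5.10 CPM and the C-body null construct at 3.08, 3.85 and 4.03, so FL-NPM1c libraries were above the 9 others. RHBDL3, a rhomboid-family membrane protein, rose from 0.387, 0.515 and 0.434 to 3.72, 3.64 and 3.64 CPM (3.02 ± 0.20, adjusted p = 2.3e-07). NGFR, the low-affinity neurotrophin receptor, rose by 2.73 ± 0.25 (adjusted p = 3.6e-06), and CDH6, a cadherin, by 2.68 ± 0.18 (adjusted p = 2.3e-07). The prostacyclin synthase PTGIS rose from 1.05, 1.22 and 1.60 to 4.40, 3.80 and 4.00 CPM (1.67 ± 0.16, adjusted p = 6.6e-06) and the proteoglycan SDC1 from 1.88, 2.04 and 1.77 to 6.10, 5.60 and 6.23 CPM (1.65 ± 0.14, adjusted p = 1.2e-06). MAST4, a kinase (2.16 ± 0.17), the potassium channel KCNJ2 (1.61 ± 0.16), the lysosomal protease CTSF (1.73 ± 0.23) and OSR2, a zinc finger factor of limb and tooth development (1.47 ± 0.11), were in the set too. Each of these genes was also higher with FL-NPM1c than with the C-body null construct (log2 1.28 to 4.41).

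Markers of other cell types were read beside these genes. Collagen COL1A2, from the fibroblast list and below the 2 CPM of the naming rule, was at 1.55, 1.00 and 1.54 CPM with FL-NPM1c and 0.0276, 0.107 and 0.10 with mCherry (4.06 ± 0.39, adjusted p = 5.7e-06). Of that list's 12 markers 3 could be tested and 2 were higher; EPCAM, KRT19, CDH1 and COL3A1 had 0 counts, and DCN had 1 count. The summed level of the list was 1869.5 to 1991 CPM with FL-NPM1c and 1528 to 1662 with mCherry, nearly all of it FN1 and VIM. Of the 10 B and plasma cell markers SDC1 and PAX5 could be tested. PAX5 stood at 0.165 to 0.35 CPM with FL-NPM1c and 0.0825 to 0.197 with mCherry and did not pass (1.11 ± 0.50, adjusted p = 0.14). JCHAIN and TNFRSF17 had 1 count each and IGKC 0 (summed level of the list 5.76 to 6.58 against 1.96 to 2.17 CPM). Of the erythroid and megakaryocyte markers PPBP was higher at 2.32 ± 0.334 against 0.86 ± 0.216 CPM (SD, n = 3), and ITGA2B did not pass at 0.325 to 0.495 against 0.131 to 0.263 CPM (0.79 ± 0.40, adjusted p = 0.18). The transferrin receptor TFRC, which dividing cells carry too, was lower (-0.32 ± 0.10, adjusted p = 0.035). Its call was lost when FL-NPM1c replicate 1 (adjusted p = 0.1), FL-NPM1c replicate 2 (adjusted p = 0.14), mCherry replicate 1 (adjusted p = 0.058) or mCherry replicate 3 (adjusted p = 0.15) was left out. PF4 had 2 counts and GP9 had 0 (summed level of the list 170.5 to 192 against 205 to 244 CPM). Of 3 tested T and NK cell markers NCAM1 was higher, at 133.8 to 157 against 109.4 to 127 CPM (0.28 ± 0.08, adjusted p = 0.03), and CD247 and NKG7 did not pass (summed level of the list 139 to 159 against 115 to 131 CPM). The NCAM1 call was lost when FL-NPM1c replicate 1 (adjusted p = 0.06), FL-NPM1c replicate 2 (adjusted p = 0.1), FL-NPM1c replicate 3 (adjusted p = 0.099) or mCherry replicate 1 (adjusted p = 0.2) was left out. Granulocyte markers were lower in 2 of 4 tested genes, CSF3R and CXCR2, with LCN2 and CEACAM8 at 0 (summed level 45.6 to 52.5 against 83.9 to 100.4 CPM). COL1A2, PAX5, PPBP, TFRC, ITGA2B and NCAM1 were named after their values were seen. The part of other cells in any of these differences was not tested, and in bulk RNA fewer cells of a type and less RNA per cell cannot be told apart.

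Some integrins and Fc receptors of the monocyte surface fell with FL-NPM1c, and most tested members of both lists did not pass. ITGAM (chr16:31259967-31332892), the CD11b chain of complement receptor 3, stood at 13.7, 17.8 and 14.8 CPM with mCherry and 3.20, 4.64 and 3.59 with FL-NPM1c (-2.02 ± 0.14, adjusted p = 2.3e-07). ITGAX, the CD11c chain, went from 11.5, 13 and 9.05 to 4.40, 4.03 and 3.68 CPM (-1.48 ± 0.16, adjusted p = 1.8e-05), and ITGAL, the LFA-1 chain, fell by 0.86 ± 0.11 (adjusted p = 8.3e-05). All libraries of one group lay below all of the other for each. These were among 4 of 14 tested leukocyte integrins lower and 0 higher (5 and 0 GC-corrected), against 7.95% lower over all genes. Of 13 Fc receptor genes 3 were lower and 0 higher (5 and 0 GC-corrected), with FCGR1A, the high-affinity IgG receptor, at 16.7, 17.3 and 16.9 CPM with FL-NPM1c and 41.7, 40.9 and 40.9 with mCherry (-1.28 ± 0.08, adjusted p = 8.0e-08); reads of FCGR1A and of its near copy FCGR1BP can be split between them. The shared signalling chain FCER1G fell by 0.63 ± 0.11 (adjusted p = 0.0012).

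Toll-like receptors sense microbial products. Of 16 tested members of that list, which includes CD14, 6 were lower, 1 was higher and 9 were not called, with a median of -0.35 (9 and 2 GC-corrected). TLR4 (chr9:117704175-117724730), the lipopolysaccharide receptor, stood at 42.3, 39 and 44.7 CPM with mCherry and 20.7, 19.9 and 20.4 with FL-NPM1c (-1.04 ± 0.09, adjusted p = 1.7e-06). TLR6 fell by 1.45 ± 0.13 and TLR1 by 1.13 ± 0.15, both partners of TLR2. The gene called higher was CD180, a TLR4-like inhibitor, which rose from 29.1, 27.2 and 33.3 to 50.1, 54.5 and 53.8 CPM (0.82 ± 0.09, adjusted p = 2.1e-05). CD14 did not pass (-0.35 ± 0.18, adjusted p = 0.2; GC-corrected -0.55 ± 0.16, adjusted p = 0.03).

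TREM and Siglec receptors were the list with the largest share lower: 8 of 10 tested and 0 higher (median -0.67; 8 and 0 GC-corrected). TREM1, which amplifies inflammation, was at 0.828, 0.886 and 0.919 CPM with FL-NPM1c and 2.46, 2.53 and 2.27 with mCherry (-1.46 ± 0.17, adjusted p = 4.6e-05). SIGLEC16 (-1.32 ± 0.17, adjusted p = 1.1e-04) and SIGLEC11 (-1.13 ± 0.22, adjusted p = 0.0027) are near-identical copies, and reads can be split between them. CD33, itself a Siglec, was lower by only 0.26 ± 0.07 (adjusted p = 0.02), a call that was lost when FL-NPM1c replicate 2 (adjusted p = 0.077), FL-NPM1c replicate 3 (adjusted p = 0.059) or mCherry replicate 3 (adjusted p = 0.063) was left out. Of 10 C-type lectin receptors 4 were lower and 1 higher (3 and 1 GC-corrected; 2 lower without FL-NPM1c replicate 1 or mCherry replicate 3). CLEC7A, the fungal glucan receptor, was lower (-0.95 ± 0.16, adjusted p = 0.0011) and CD209 was higher (0.73 ± 0.14, adjusted p = 0.0027). Of 10 leukocyte immunoglobulin-like receptors 2 were lower and 0 higher (3 and 0 GC-corrected).

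Receptors for cytokines and chemoattractants were called lower more often than higher. The shares over all genes were 7.95% lower and 7.58% higher. Of 35 cytokine and growth factor receptors 13 were lower and 4 higher (18 and 5 GC-corrected; 1 higher without mCherry replicate 1). CSF3R, the G-CSF receptor, went from 69.6, 80.7 and 64.9 to 34.6, 35.3 and 34.2 CPM (-1.05 ± 0.11, adjusted p = 9.9e-06). CSF1R, the receptor that supports monocytes, did not pass: it was at 20.2 ± 1.38 CPM with FL-NPM1c and 22.5 ± 3.77 with mCherry (SD, n = 3; -0.16 ± 0.12, adjusted p = 0.35), against 1.62 ± 0.198 CPM in NTC_DMSO. IL15RA rose by 0.61 ± 0.11 (adjusted p = 0.0023). Of 23 chemoattractant receptors 6 were lower and 1 higher (8 and 1 GC-corrected). CCR2, the receptor of inflammatory monocytes, went from 26.3, 25.2 and 29.8 to 16.4, 15.4 and 16.4 CPM (-0.75 ± 0.09, adjusted p = 3.3e-05), the complement C3a receptor C3AR1 fell by 1.47 ± 0.17 and CXCR2 by 0.84 ± 0.10. RXFP1, the relaxin receptor, had among the largest falls of genes that reach 2 CPM, from 7.49, 6.18 and 8.25 CPM to 1.29, 1.70 and 1.79 (-2.18 ± 0.17, adjusted p = 9.8e-07).

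Within the TNF superfamily ligands split, and the shares over all genes were 7.95% lower and 7.58% higher. TNFSF14 (LIGHT) went from 3.92, 4.65 and 5.75 to 1.11, 0.956 and 1.30 CPM (-2.07 ± 0.17, adjusted p = 1.2e-06), and TNFSF13B (BAFF), which supports B cells, from 25.2, 19.8 and 25 to 10.7, 10.2 and 9.17 CPM (-1.22 ± 0.11, adjusted p = 3.6e-06). TNF went the other way, from 21.4, 25.1 and 21.1 to 38.9, 35.2 and 35.3 CPM (0.69 ± 0.09, adjusted p = 1.5e-04). Of the 26 tested members 7 were lower and 4 higher (9 and 2 GC-corrected; 4 lower without FL-NPM1c replicate 2, 1 higher without FL-NPM1c replicate 1 or mCherry replicate 1).

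The calgranulins S100A8 and S100A9, abundant calcium-binding proteins of monocytes and neutrophils, were both lower. S100A8 stood at 92.5, 63.8 and 51.1 CPM with FL-NPM1c against 182, 136 and 182 with mCherry, and S100A9 at 147, 98.5 and 81.8 against 266, 229 and 246. Their falls of 1.27 ± 0.17 (adjusted p = 1.4e-04) and 1.18 ± 0.15 (adjusted p = 8.8e-05) left them far above NTC_DMSO (5.62 ± 1.04 and 7.81 ± 0.352 CPM; SD, n = 3). Of 9 tested S100 genes 5 were lower and 0 higher (7 and 0 GC-corrected). CYBB, the membrane-bound catalytic subunit of the phagocyte oxidase, fell by 0.59 ± 0.09 (adjusted p = 5.3e-04); of 11 tested subunits 2 were lower and 0 higher, with a median of -0.09 (6 and 0 GC-corrected).

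Of 19 inflammasome genes 9 were lower and 1 higher (9 and 3 GC-corrected). MEFV (pyrin) went from 18, 22.2 and 18.6 to 10.9, 8.65 and 9.42 CPM (-1.02 ± 0.11, adjusted p = 1.7e-05), NLRP12 fell by 0.84 ± 0.11 and NLRC4 by 0.98 ± 0.19. NLRP3 was at 96.4 ± 3.28 against 95.5 ± 4.25 CPM (SD, n = 3; adjusted p = 0.92), and the pore protein GSDMD rose by 0.67 ± 0.15 (adjusted p = 0.0076). IL1B, the cytokine that inflammasomes release, fell from 61.2, 55.9 and 68.5 to 42.6, 31.8 and 31.4 CPM (-0.81 ± 0.11, adjusted p = 1.5e-04).

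PTPN22, a phosphatase that restrains immune receptor signalling, went from 6.30, 6.69 and 7.88 to 2.03, 1.68 and 1.69 CPM (-1.95 ± 0.14, adjusted p = 3.6e-07). PTPRO fell by 1.33 ± 0.13 and PTPRJ by 0.49 ± 0.08, and of 23 leukocyte tyrosine phosphatases 7 were lower, 1 was higher and 15 were not called (10 and 0 GC-corrected; 3 higher without mCherry replicate 2). Of 44 actin and adhesion genes 11 were lower and 3 higher (19 and 3 GC-corrected; 7 lower without FL-NPM1c replicate 2, 0 higher without FL-NPM1c replicate 1 or 2 or mCherry replicate 3). FGD4, an activator of the GTPase CDC42, went from 4.78, 5.13 and 6.21 to 1.76, 1.73 and 1.94 CPM (-1.56 ± 0.16, adjusted p = 9.0e-06), PECAM1 fell by 0.81 ± 0.08 and ELMO1 by 0.73 ± 0.09. TMSB4X, the actin-sequestering thymosin, had among the largest falls in absolute level, from 2208, 1928 and 2251 to 1605, 1536 and 1403 CPM (-0.49 ± 0.08, adjusted p = 5.1e-04). Beside the lists of this paragraph, 7.95% of all genes were lower and 7.58% higher, and 13% and 14.8% without mCherry replicate 2. Of 45 lysosomal genes 11 were lower and 1 higher (17 and 1 GC-corrected; 6 lower without FL-NPM1c replicate 2 or mCherry replicate 3, 5 higher without mCherry replicate 2), with CTSS at -0.53 ± 0.09 and the acid ceramidase ASAH1 at -0.52 ± 0.09. The survival factor BCL2A1 fell from 7.35, 5.77 and 7.58 to 3.20, 2.31 and 1.79 CPM (-1.51 ± 0.17, adjusted p = 3.3e-05). It had the largest fall of the BCL2 family list, which did not fall as a whole. Of 17 tested members 4 were higher and 2 lower, with a median of 0.20 (4 and 2 GC-corrected). Without FL-NPM1c replicate 1, 0 were higher, and without mCherry replicate 2, 7 were.

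The marker list of monocytes and macrophages had 15 of 32 tested members lower and 3 higher (18 and 1 GC-corrected; 0 higher without FL-NPM1c replicate 1). Over all genes 7.95% were lower and 7.58% higher. Many members also stand in lists above, among them ITGAM, ITGAX, FCGR1A, TLR4, S100A8, S100A9, CLEC7A, TREM1 and CCR2. The count is therefore not a result apart from those lists. The complement component C1QA, which mature macrophages secrete, was called higher: it stood at 13.7, 9.44 and 6.09 CPM with FL-NPM1c and 4.78, 5.75 and 3.41 with mCherry (1.04 ± 0.24, adjusted p = 0.0099), a call that was lost when FL-NPM1c replicate 1 (adjusted p = 0.063) was left out. Among the complement receptors CR1 fell from 88, 114 and 95.5 to 62.3, 46 and 58.6 CPM (-0.83 ± 0.13, adjusted p = 6.7e-04).

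**Figure D4:**
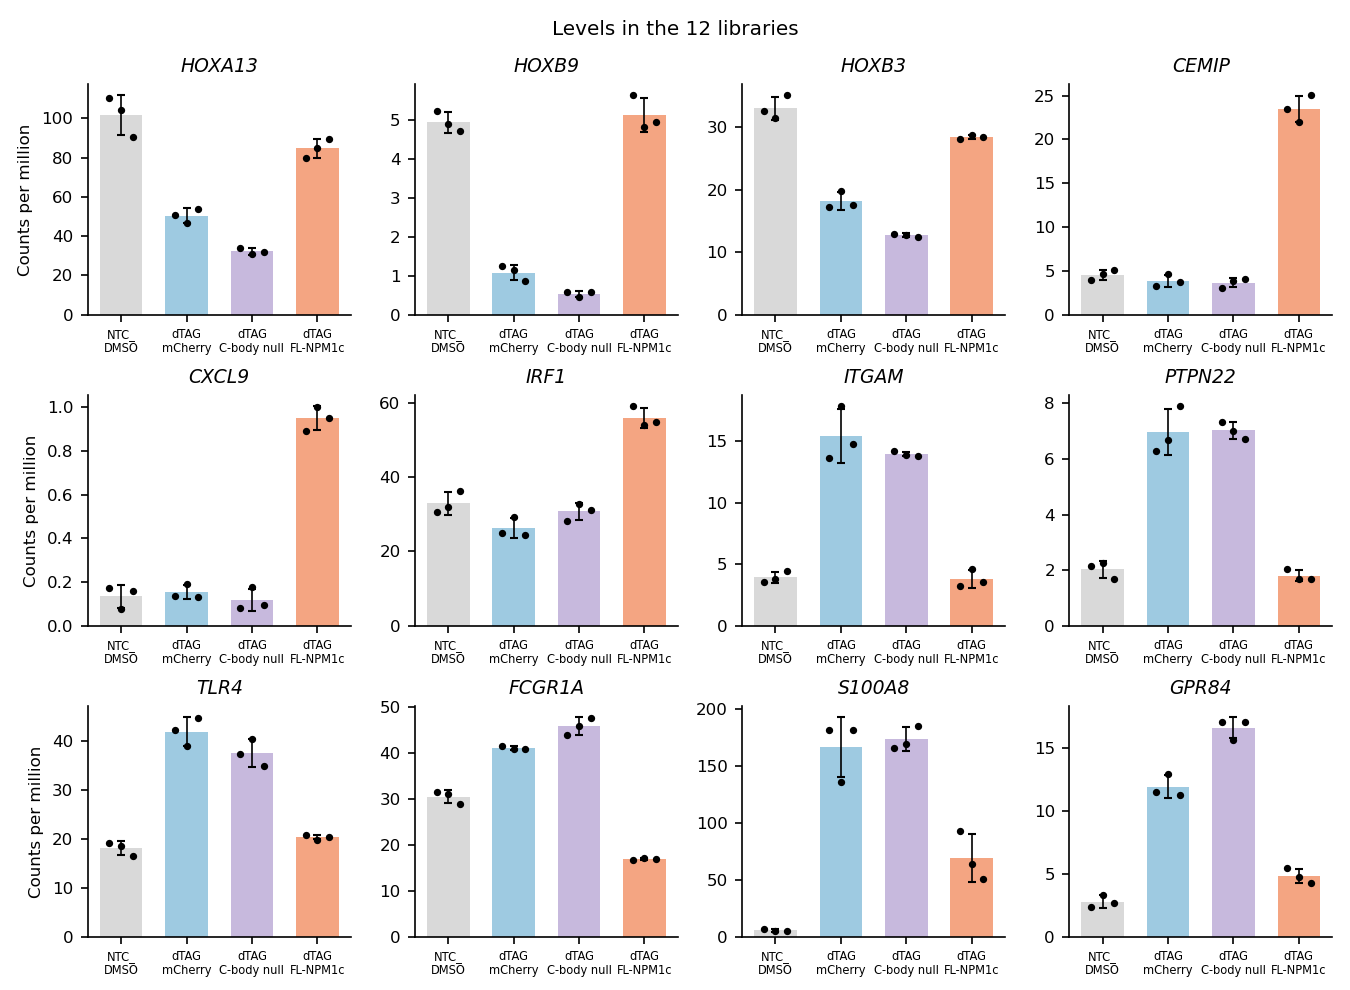
Levels in CPM of 12 genes in the 12 libraries; bars are group means, whiskers 1 SD (n = 3) and points single libraries. ITGAM, PTPN22, TLR4, S100A8 and GPR84 lie lower with FL-NPM1c than with mCherry, HOXA13, HOXB9 and HOXB3 lie higher, and CEMIP and CXCL9 are high in the FL-NPM1c libraries alone.

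Lineage transcription factors moved in both directions, where 7.95% of all genes were lower and 7.58% higher. Of 35 tested members 10 were lower and 5 higher (12 and 7 GC-corrected; 4 lower without FL-NPM1c replicate 2, 3 higher without FL-NPM1c replicate 2 or mCherry replicate 1 or 3). SPI1 was at 103 ± 8.44 CPM with FL-NPM1c and 105 ± 17.9 with mCherry (SD, n = 3) and did not pass (-0.02 ± 0.12, adjusted p = 0.93); GC-corrected it was -0.31 ± 0.04 (adjusted p = 6.8e-05). Its relative SPIB fell by 1.20 ± 0.19 (adjusted p = 7.4e-04) at 0.613 ± 0.0741 CPM, and TFEC, a macrophage-restricted factor of the MiT family, by 1.30 ± 0.27 (adjusted p = 0.0053). NR4A1, the orphan receptor of nonclassical monocytes, rose from 2.18, 2.87 and 1.77 to 5.86, 5.60 and 6.05 CPM (1.34 ± 0.17, adjusted p = 9.2e-05). CEBPA was higher by 0.36 ± 0.09 (adjusted p = 0.013) in the main fit and 0.05 ± 0.08 GC-corrected (adjusted p = 0.73), and its call was lost when FL-NPM1c replicate 1 (adjusted p = 0.095), FL-NPM1c replicate 2 (adjusted p = 0.063) or mCherry replicate 3 (adjusted p = 0.064) was left out. TRIB1 rose (0.45 ± 0.08) while TRIB2, another pseudokinase that degrades C/EBP alpha, fell (-0.57 ± 0.09). Primary granule genes were 3 higher and 3 lower of 14 (3 and 4 GC-corrected; 6 lower without mCherry replicate 2). The protease PRTN3 rose from 83.4, 85.7 and 60.1 to 127, 133 and 112 CPM (0.70 ± 0.13, adjusted p = 0.0028), and the ribonuclease RNASE2 fell by 0.48 ± 0.10 (adjusted p = 0.0064).

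Some chemokine and antigen processing genes rose with FL-NPM1c. The chemokine CXCL9, which attracts T cells, stood at 0.893, 1.00 and 0.952 CPM with FL-NPM1c and 0.138, 0.193 and 0.134 with mCherry (2.56 ± 0.31, adjusted p = 5.8e-05). Its relatives CXCL10 and CXCL11 rose by 2.61 ± 0.50 (adjusted p = 0.0028) and 1.67 ± 0.25 (adjusted p = 4.2e-04), reaching 0.554 ± 0.175 and 1.89 ± 0.404 CPM (SD, n = 3). No FL-NPM1c library overlapped a mCherry library for these 3 genes, all of them low in counts. The chemokine list as a whole had 4 higher and 5 lower of 12 (4 and 4 GC-corrected; 2 lower without FL-NPM1c replicate 2), with CCL2 down by 1.15 ± 0.15 (adjusted p = 9.8e-05). IRF1, a factor that interferon-gamma induces, went from 24.8, 29.4 and 24.5 to 59, 54.1 and 54.7 CPM (1.09 ± 0.10, adjusted p = 2.4e-06). The immunoproteasome subunit PSMB9 went from 13.4, 15 and 11 to 25.4, 24.9 and 23.6 CPM (0.90 ± 0.11, adjusted p = 8.3e-05), the proteasome activator PSME1 rose by 0.50 ± 0.07 (adjusted p = 1.9e-04), and both were higher than with the C-body null construct too (0.72 ± 0.11 and 0.44 ± 0.07). STAT2, which carries interferon signals and was chosen after its values were seen, was in the other direction (-0.32 ± 0.08, adjusted p = 0.013); its call was lost when FL-NPM1c replicate 2 (adjusted p = 0.068) was left out.

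The lists that hold these genes were mixed. Among all genes 7.58% were higher and 7.95% lower, and 9.52% and 10% with GC correction. Of 40 type I interferon response genes 7 were higher and 5 lower (13 and 8 GC-corrected; 3 higher without FL-NPM1c replicate 1 or 2 or mCherry replicate 3, 2 lower without FL-NPM1c replicate 2). LGALS3BP (1.09 ± 0.17) and OAS3 (0.91 ± 0.14) rose, and DDX60L fell from 56.6, 53.7 and 63 to 23.2, 27 and 28.9 CPM (-1.13 ± 0.11, adjusted p = 8.1e-06). Antigen presentation genes were 4 higher and 4 lower of 21 (4 and 7 GC-corrected; 1 higher without mCherry replicate 1, 2 lower without FL-NPM1c replicate 2); the costimulator CD86 fell by 0.63 ± 0.12 (adjusted p = 0.0026). NF-kB and inflammatory genes were 6 higher and 5 lower of 26 (6 and 6 GC-corrected; 3 lower without FL-NPM1c replicate 2). NFKBIE rose from 31.3, 33.3 and 27.3 to 50.7, 51.2 and 48.7 CPM (0.71 ± 0.09, adjusted p = 1.1e-04) and RELB by 0.79 ± 0.16 (adjusted p = 0.0044), whereas the adhesion molecule ICAM1 fell by 0.82 ± 0.14 (adjusted p = 0.001).

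Of 79 cytosolic ribosomal protein genes 42 were higher, by small amounts, and 0 lower, with a median of 0.26 (54 and 0 GC-corrected; 5 higher without FL-NPM1c replicate 1). RPLP0 stood at 1954, 1926 and 1789 CPM with FL-NPM1c and 1465, 1603 and 1250.4 with mCherry (0.39 ± 0.09, adjusted p = 0.0093), a call that was lost when FL-NPM1c replicate 1 (adjusted p = 0.055) was left out. RPL13A was higher by 0.35 ± 0.08 (adjusted p = 0.0087); its call was lost when FL-NPM1c replicate 1 (adjusted p = 0.07) was left out. Against the C-body null construct 1 ribosomal protein gene was higher and 0 lower. Ribosome biogenesis factors were 9 higher and 2 lower of 56, with a median of -0.01 (13 and 3 GC-corrected; 1 higher without FL-NPM1c replicate 1 or 2 or mCherry replicate 1 or 3, 15 higher without mCherry replicate 2, 11 lower without mCherry replicate 2). The methyltransferase FBL was higher by 0.42 ± 0.09 (adjusted p = 0.0043). Beside both lists, 7.58% of all genes were higher and 7.95% lower, and 14.8% and 13% without mCherry replicate 2.

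Of 47 G1/S and DNA replication genes 13 were higher and 0 lower (19 and 0 GC-corrected; 4 higher without FL-NPM1c replicate 1 or 2). MCM7, a helicase subunit, went from 332, 405 and 287 to 500.3, 491 and 487 CPM (0.53 ± 0.10, adjusted p = 0.003), and TK1 rose by 0.54 ± 0.12 (adjusted p = 0.0089). G2/M genes were 7 higher and 0 lower of 42, with a median of 0.03 (16 and 0 GC-corrected; 2 higher without FL-NPM1c replicate 1, 3 lower without mCherry replicate 2). CDC20 rose from 111, 129.7 and 96.2 to 185, 181 and 174 CPM (0.68 ± 0.10, adjusted p = 4.1e-04). For these lists the shares over all genes were 7.58% higher and 7.95% lower, and 9.52% and 10% with GC correction. MYC rose from 185, 184 and 178 to 242, 242 and 229 CPM (0.38 ± 0.07, adjusted p = 0.0022). CBX2, a Polycomb subunit, rose by 0.68 ± 0.11 (adjusted p = 9.5e-04), among 5 higher and 0 lower of 27 Polycomb genes (7 and 1 GC-corrected; 2 higher without mCherry replicate 1, 9 higher without mCherry replicate 2).

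Part of the mitochondrial genes were lower. Over all genes 7.95% were lower and 7.58% higher, and 13% and 14.8% without mCherry replicate 2. Of 79 nuclear genes of oxidative phosphorylation 18 were lower and 1 higher (25 and 2 GC-corrected; 10 lower without FL-NPM1c replicate 2 or mCherry replicate 1 or 3, 35 lower without mCherry replicate 2, 7 higher without mCherry replicate 2). NDUFB5 went from 155, 121 and 151 to 92, 100.5 and 94.5 CPM (-0.57 ± 0.10, adjusted p = 0.0015), while NDUFA8 rose by 0.52 ± 0.07 (adjusted p = 1.9e-04). Of 15 mitochondrially encoded transcripts 4 were lower and 0 higher (3 and 0 GC-corrected; 1 lower without FL-NPM1c replicate 2 or mCherry replicate 3, 14 lower without mCherry replicate 2). MT-ND5 was at 2696, 2434 and 2765 CPM against 3331, 3209 and 4060.4 (-0.43 ± 0.09, adjusted p = 0.007). The mitochondrial share of all counts was 7.63, 7.21 and 7.10% with FL-NPM1c and 8.41, 7.32 and 9.63% with mCherry, and its part in the result was not tested. Mitochondrial ribosomal protein genes had 2 of 77 higher and 2 lower (3 and 4 GC-corrected; 13 higher without mCherry replicate 2, 19 lower without mCherry replicate 2). Those main-fit shares of 2.60% each lay under the 7.58 and 7.95% over all genes.

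**Figure D5:**
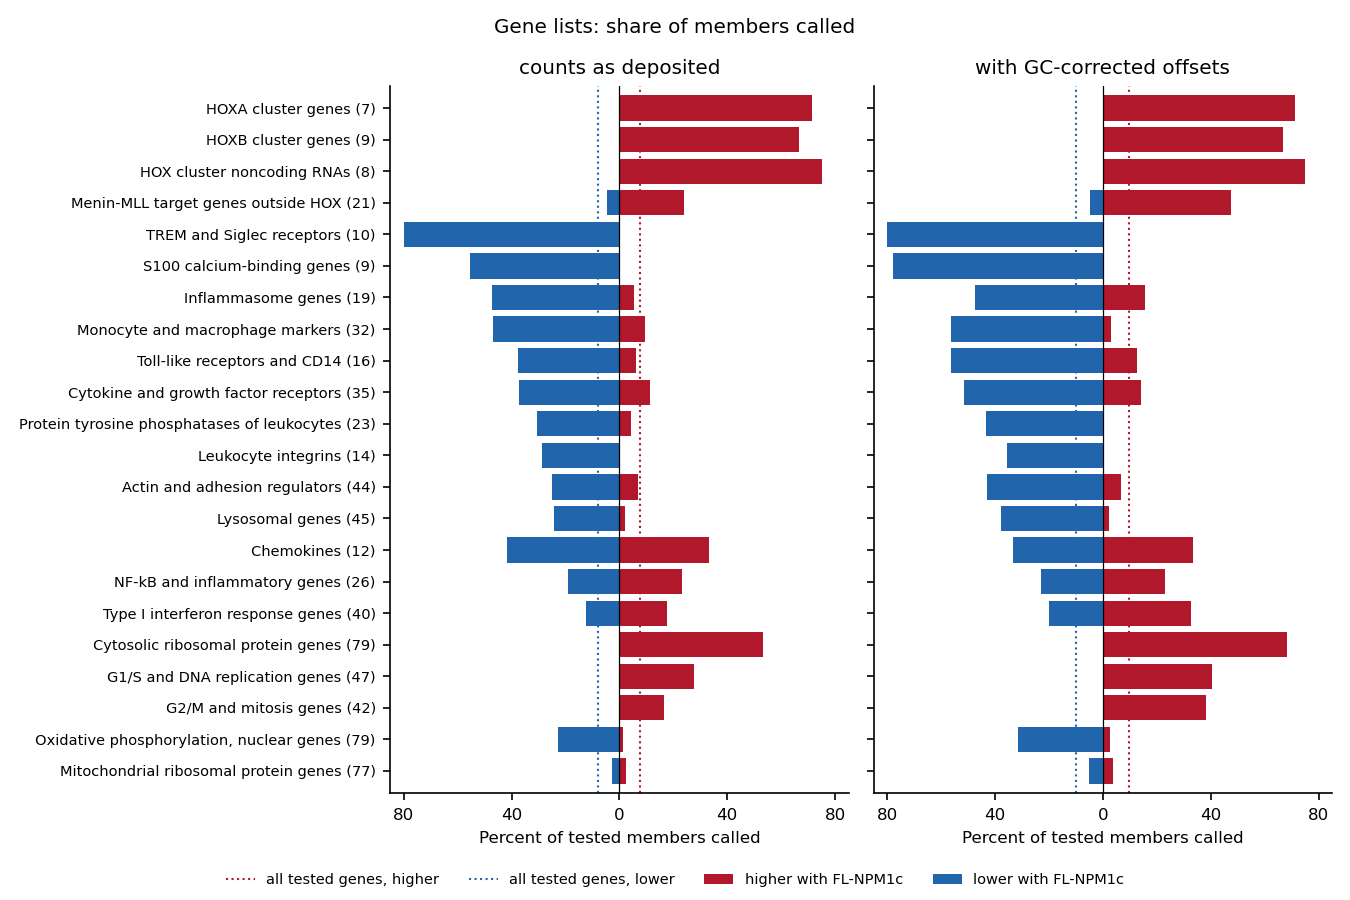
Percent of tested members called higher (red, to the right) and lower (blue, to the left) with FL-NPM1c in 22 gene lists, from the counts as deposited and with GC-corrected offsets; the number tested is in brackets and dotted lines mark the shares over all tested genes. TREM and Siglec receptors (8 of 10 lower) and HOX noncoding RNAs (6 of 8 higher) lie farthest out.

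Amino acid response genes were 9 higher and 1 lower of 35 (11 and 3 GC-corrected; 5 higher without FL-NPM1c replicate 1 or 2 or mCherry replicate 1, 14 higher without mCherry replicate 2, 4 lower without mCherry replicate 2). The glycine transporter SLC6A9 rose by 1.43 ± 0.20 (adjusted p = 2.0e-04) and PHGDH, the entry enzyme of serine synthesis, by 0.65 ± 0.11 (adjusted p = 9.3e-04), whereas the cystine transporter SLC7A11 fell by 0.63 ± 0.12 (adjusted p = 0.0027). p53 targets were 8 higher and 2 lower of 26 (7 and 3 GC-corrected; 3 higher without FL-NPM1c replicate 1 or 2, 6 lower without mCherry replicate 2). GDF15, a stress-induced cytokine, rose from 6.80, 6.82 and 5.04 to 12.1, 10.1 and 8.91 CPM (0.73 ± 0.16, adjusted p = 0.0064) against 0.561 ± 0.172 CPM in NTC_DMSO. Glucose and hypoxia genes were 5 higher and 7 lower of 41 (5 and 9 GC-corrected; 1 higher without FL-NPM1c replicate 1 or mCherry replicate 1, 13 higher without mCherry replicate 2, 3 lower without FL-NPM1c replicate 2); the glucose transporter SLC2A3 went from 22.1, 21.1 and 25.9 to 12.2, 11.8 and 11.5 CPM (-0.95 ± 0.09, adjusted p = 5.7e-06). Nuclear body scaffolds were 3 higher and 1 lower of 16 (7 and 1 GC-corrected; 0 higher without FL-NPM1c replicate 2 or mCherry replicate 3), the nuclear body protein SP100 falling by 0.46 ± 0.08 (adjusted p = 0.0014). Nuclear transport genes, among them exportins, importins, nucleoporins and the RAN cycle, were read as a list. Of its 26 tested members 2 were higher and 0 lower (7 and 0 GC-corrected; 5 higher without mCherry replicate 2). Splicing factors were 2 higher and 2 lower of 42 (7 and 1 GC-corrected; 8 higher without mCherry replicate 2, 8 lower without mCherry replicate 2), and proteasome subunits 3 higher and 1 lower of 33 (4 and 1 GC-corrected; 1 higher without FL-NPM1c replicate 1, 10 higher without mCherry replicate 2, 10 lower without mCherry replicate 2). Chaperones were 3 higher and 3 lower of 39 (8 and 3 GC-corrected; 1 higher without FL-NPM1c replicate 1 or 2 or mCherry replicate 3, 6 higher without mCherry replicate 2, 0 lower without FL-NPM1c replicate 2, 9 lower without mCherry replicate 2), and cyclins with their kinases 2 higher and 2 lower of 23 (3 and 5 GC-corrected). Over all genes 7.58% were higher and 7.95% lower in the main fit, and 14.8% and 13% without mCherry replicate 2. In the main fit the transport, splicing, proteasome, chaperone and cyclin lists had 7.69, 4.76, 9.09, 7.69 and 8.70% higher. Their shares lower were 0, 4.76, 3.03, 7.69 and 8.70%. In the main fit these 5 lists thus lay near or under the shares over all genes, and in other fits some lay above them. With GC correction 9.52% of all genes were higher and 10% lower. There 7 of 26 transport, 8 of 39 chaperone and 7 of 42 splicing genes were higher, and 5 of 23 cyclin genes were lower. Without mCherry replicate 2, 10 of 33 proteasome genes were higher and 10 lower.

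The C-body null construct shared the vector and the drug with FL-NPM1c, and the test between them used the same FL-NPM1c libraries as the test above. It called 1160 genes (4.82%) higher and 1169 (4.86%) lower with FL-NPM1c. No GC-corrected fit and no fit with a library left out was run for this test. HOXA and HOXB genes were 6 of 7 and 6 of 9 higher with FL-NPM1c than with the C-body null construct, with medians of 0.96 and 1.04, and 16 of 32 monocyte markers and 8 of 10 TREM and Siglec receptors were lower. HOXB9 stood at 0.577, 0.455 and 0.572 CPM with the C-body null construct (3.25 ± 0.17 for FL-NPM1c over it, adjusted p = 9.2e-09) and HOXA9 at 29.8, 27.9 and 29.3 (0.63 ± 0.09, adjusted p = 1.9e-04). MEIS1 was at 8.41, 7.89 and 8.39 CPM there and was higher with FL-NPM1c by 0.93 ± 0.09 (adjusted p = 3.6e-06). For HOXB9, HOXA9 and MEIS1 the C-body null libraries lay below the mCherry libraries too, so these differences are larger than those over mCherry. The mCherry means were 1.08 CPM for HOXB9 and 42.9 for HOXA9. HOXA9 differed by only 0.07 ± 0.09 (log2) between FL-NPM1c and mCherry. ITGAM was lower with FL-NPM1c than with the C-body null construct by 1.88 ± 0.14 (adjusted p = 1.6e-07). Some genes of the mCherry comparison did not differ here past the threshold: PRTN3 (0.01 ± 0.13, adjusted p = 0.98), CD209 (0.01 ± 0.13, adjusted p = 0.97), IL18RAP (-0.04 ± 0.13, adjusted p = 0.9) and MYC (0.15 ± 0.07, adjusted p = 0.21).

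NTC_DMSO levels are given side by side, with no test against FL-NPM1c. HOXB9 was at 5.23, 4.88 and 4.70 CPM there and 5.62, 4.80 and 4.94 with FL-NPM1c, values that overlap. HOXA13 was at 110.2, 104 and 90.7 CPM, above the FL-NPM1c libraries, and HOXB3 at 32.7, 31.4 and 35.1. In NTC_DMSO ITGAM (3.55, 3.80 and 4.47 CPM) and PTPN22 (2.13, 2.28 and 1.66) overlapped their FL-NPM1c levels and TLR4 (19.2, 18.6 and 16.5) lay below them, whereas FCGR1A (31.6, 31.1 and 29 CPM) lay between the FL-NPM1c and mCherry levels. FGD4 (0.67, 0.475 and 0.317 CPM) lay below all FL-NPM1c libraries.

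Promoters of the genes called were then read in a window from 250 bases before to 50 bases after the RefSeq start (GRCh38.p14), which was available for 12013 tested genes. The PU.1 motif GAGGAAGT, the site of the factor encoded by SPI1, was searched on both strands and found in 2.70% of all these promoters, in 1.94% of those of genes called higher and in 4.598% of those called lower. Among genes lower at least 2-fold 8 of 109 (7.34%) held it and among genes higher at least 2-fold 2 of 113 (1.77%); the former include BCL2A1, IPCEF1 and TLR4. The C/EBP motif TTGCNNAA was in 7.47% of all promoters, in 7.12% of those of genes called higher and in 10.02% of those called lower. At 2-fold or more it was in 12 of 113 (10.6%) higher and 16 of 109 (14.7%) lower. The E-box CACGTG was in 9.95% of all, in 10 of 113 (8.85%) higher and in 3 of 109 (2.75%) lower at least 2-fold. For the AP-1 motif TGANTCA these shares were 4.72, 3.54 and 9.17%, and for GABPA-ETS (CCGGAAGT) 8.38, 0 and 2.75%. For MEIS-HOX (TGATTNAT) they were 1.31, 2.65 and 3.67%, for MEIS (TGACAG) 13.2, 10.6 and 16.5%, and for TATAAA 6.23, 12.4 and 11.0%. CpG dinucleotides numbered 25 in the median promoter, 27 in those of all genes called higher and 24 in those called lower. At 2-fold or more the medians were 27 (higher) and 7 (lower). The gene sets are calls of the main fit, with a median transcript GC content of 56.6% for genes called higher and 43.1% for those lower. The part of GC content in the motif and CpG shares was not tested. A match is a stretch of letters and not evidence of binding.

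The promoters of 2 genes that rose and 2 that fell are shown; they were chosen after their values were seen. Capitals mark motif matches. CEMIP (chr15:80779120-80779419, plus strand) holds 32 CpG, a TATAAA 30 bases before the start and a C/EBP match on the minus strand. HOXA13 (chr7:27200042-27200341, minus strand) holds 44 CpG and the MEIS motif TGACAG, present in 13.2% of all promoters, 16 bases after the start. BCL2A1 (chr15:79971147-79971446, minus strand) holds 2 CpG, a PU.1 match 179 bases before the start, a MEIS-HOX match (TGATTNAT) on its minus strand and TATAAA. TLR4 (chr9:117704153-117704452, plus strand) holds 8 CpG and a pair of PU.1 matches on the minus strand, read as ACTTCCTC. The start of the TLR4 coordinates given earlier lies inside this window and before both matches. They are thus before the RefSeq start but within the gene by those coordinates.
CEMIP: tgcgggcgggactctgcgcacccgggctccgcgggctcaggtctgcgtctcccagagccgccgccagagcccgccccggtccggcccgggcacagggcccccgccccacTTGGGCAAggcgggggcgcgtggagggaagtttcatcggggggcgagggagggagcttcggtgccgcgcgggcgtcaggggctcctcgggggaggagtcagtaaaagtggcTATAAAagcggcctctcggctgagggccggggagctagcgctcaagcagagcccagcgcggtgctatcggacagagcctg
HOXA13: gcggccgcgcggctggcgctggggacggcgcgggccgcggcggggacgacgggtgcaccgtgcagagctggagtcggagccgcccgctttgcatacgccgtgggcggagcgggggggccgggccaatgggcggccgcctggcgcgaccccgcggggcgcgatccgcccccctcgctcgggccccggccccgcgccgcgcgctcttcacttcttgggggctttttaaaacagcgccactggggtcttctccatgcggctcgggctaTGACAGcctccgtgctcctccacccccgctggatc
BCL2A1: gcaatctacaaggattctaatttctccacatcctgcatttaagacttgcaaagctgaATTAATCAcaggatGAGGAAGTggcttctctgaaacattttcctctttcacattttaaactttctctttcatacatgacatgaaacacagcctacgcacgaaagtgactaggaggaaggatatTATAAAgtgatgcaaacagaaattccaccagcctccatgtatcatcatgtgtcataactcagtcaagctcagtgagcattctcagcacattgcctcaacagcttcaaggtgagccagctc
TLR4: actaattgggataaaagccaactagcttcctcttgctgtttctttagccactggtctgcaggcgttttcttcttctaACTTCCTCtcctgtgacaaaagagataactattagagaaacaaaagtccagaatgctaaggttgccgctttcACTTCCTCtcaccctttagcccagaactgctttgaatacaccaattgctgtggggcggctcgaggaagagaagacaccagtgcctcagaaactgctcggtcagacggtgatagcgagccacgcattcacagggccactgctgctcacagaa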

How the data were processed

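RNA-seq counts were analysed for 12 libraries of OCI-AML3 NPM1c-degron cells, 3 per group, grouped by title. RNA was extracted with Trizol and 500 ng went into a stranded poly(A) kit (labels' protocols). As deposited by the authors, the values are raw counts for each Ensembl gene; STAR, featureCounts, DESeq2 and hg38 are named in the submitters' processing notes, and versions, annotation release, strand setting and the treatment of multi-mapping reads are not named there. Of 78936 lines 6 were broken and left out, and 24064 genes passed edgeR's filter on low counts, which removed 0.0795% of counts.

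All 12 libraries were fitted together with edgeR 4.0.16 (R 4.3.3; TMM factors, robust quasi-likelihood test, Benjamini-Hochberg adjustment over all tested genes, adjusted p under 0.05). Values after ± are standard errors for log2 fold changes and SDs for CPM, which are TMM-scaled except marker levels, scaled by library totals. On simulated counts for 23687 genes it found 41 of 67 genes set to change 1.5-fold, 52 of 67 at 2-fold and 59 of 66 at 4-fold, with 6 false among 158 calls. The simulated libraries had no trend with GC content, and each gene had the same spread in every group. The false calls of the simulation therefore do not measure those in the real libraries. DESeq2 1.42.0, other scalings, filters, thresholds, fewer libraries and a replicate block were alternatives; the GC-corrected fits were added after seeing the data.

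Genes were named by rule: the 12 largest folds in each direction at 2 CPM or more without overlap, the 8 largest differences in CPM, the first member and up to 3 called members per direction of each list, and called genes within 500 kb of a HOX cluster; some genes are not reported here. The comparison and its 61 gene lists and 8 marker lists were chosen with earlier results of these data known. Libraries with the same replicate number did not deviate together, so they were not paired.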

Additional observations from a re-analysis of the deposited data

How the results depend on the processing

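Leaving out each of the 6 libraries in turn gave 1621 (without FL-NPM1c replicate 2) to 6834 (without mCherry replicate 2) called genes, 697 to 3634 higher and 904 to 3200 lower, against 3735, 1823 and 1912. The stricter threshold of adjusted p under 0.01 gave 1287 calls, 534 higher and 753 lower. With at least 50 counts in at least 3 libraries the genes changed at least 2-fold were 100 higher and 124 lower, a filter that tests fewer low genes. With a replicate block 1175 genes were called higher. The replicate numbers did not pair the libraries: residual correlations of FL-NPM1c and mCherry replicates of the same number were 0.0016, -0.119 and 0.159. The other counts stayed within 1.5 times under DESeq2, RLE factors, library totals, no filter, the 2 groups alone and GC correction. Of 132 called genes named here all 132 kept their call with RLE factors and library totals, 130 with the block (CD33 and TFRC did not) and 131 with GC correction (CEBPA did not); DESeq2 kept the 129 to which it gave an adjusted p. Genes near 0 changed sign: NLRP3 to -0.039, -0.033 and -0.0045 without FL-NPM1c replicate 1, mCherry replicate 1 or mCherry replicate 3 (highest 0.051 without mCherry replicate 2); SPI1 to 0.047 and 0.075 without FL-NPM1c replicate 3 or mCherry replicate 2; HOXB4 to -0.059 with GC correction and -0.15 with GC correction and no mCherry replicate 2, where CEBPA was -0.040. The causes were not tested. CXCL9, HOXA3 and HOXA5 rest on few counts, which limits their folds.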

Other observations

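Enzymes of DNA methylation and its removal were 2 higher and 4 lower of 14 tested (2 and 2 GC-corrected; 2 lower without FL-NPM1c replicate 1 or 2 or mCherry replicate 3). MBD4, a repair glycosylase for deaminated methylcytosine, went from 78.6, 63.3 and 82.1 CPM with mCherry to 54.1, 53.2 and 52.1 CPM with FL-NPM1c (-0.49 ± 0.09, edgeR quasi-likelihood test, adjusted p = 0.0028), with no overlap. The methyltransferase gene DNMT3A did not pass (0.11 ± 0.09, adjusted p = 0.44). The list shares were 14.3% higher and 28.6% lower in the main fit, against 7.58 and 7.95% over all genes. The shares over all genes were 9.52 and 10% with GC correction, and 14.8 and 13% without mCherry replicate 2. Small nucleolar RNA host genes were 6 higher and 1 lower of 26 (5 and 2 GC-corrected; 1 higher without FL-NPM1c replicate 1 or 2 or mCherry replicate 1 or 3, 5 lower without mCherry replicate 2). SNHG15 rose by 0.40 ± 0.07 (adjusted p = 0.0013), and SNHG4 fell by 0.40 ± 0.08 (adjusted p = 0.0043). Complement components and receptors were 2 higher and 5 lower of 19, with a median of 0.02 (1 and 6 GC-corrected). Among the lower were CD46, CD55 and CD59, which protect the cell's own membrane; CD59 was picked after its values were seen. CD46 went from 425, 365 and 455 to 258, 246 and 264 CPM (-0.70 ± 0.09, adjusted p = 1.4e-04) and CD55 from 155, 119.5 and 170.2 to 105, 85.5 and 87.9 CPM (-0.67 ± 0.12, adjusted p = 0.0012), and CD59 fell by 0.38 ± 0.09 (adjusted p = 0.0089).

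Of 22 aminoacyl-tRNA synthetase genes 4 were higher and 1 lower (5 and 0 GC-corrected; 1 higher without FL-NPM1c replicate 1 or mCherry replicate 1, 5 lower without mCherry replicate 2), with AARS1 up by 0.36 ± 0.08 (adjusted p = 0.0049). Of 27 purine and pyrimidine synthesis genes 3 were higher and 1 lower (6 and 1 GC-corrected; 1 higher without FL-NPM1c replicate 1 or 2 or mCherry replicate 1 or 3, 7 higher without mCherry replicate 2). IMPDH2, which commits IMP to guanine nucleotides, went from 293, 324 and 295 to 406, 396 and 378 CPM (0.37 ± 0.07, adjusted p = 0.0024). Of 33 cholesterol genes 3 were higher and 1 lower (9 and 0 GC-corrected; 1 higher without FL-NPM1c replicate 1 or 2 or mCherry replicate 3, 12 higher without mCherry replicate 2). In the main fit that is 9.09% and 3.03%, against 7.58 and 7.95% over all genes. The sterol reductase TM7SF2 rose from 6.52, 6.15 and 4.48 to 10.6, 10.8 and 10.2 CPM (0.87 ± 0.14, adjusted p = 6.0e-04). Of 22 MAPK feedback regulators 2 were higher and 5 lower (3 and 6 GC-corrected; 1 lower without FL-NPM1c replicate 2), and RASA2, a RAS GTPase-activating protein, fell by 0.58 ± 0.10 (adjusted p = 0.0018). The cyclin CCND1 fell by 0.36 ± 0.08 (adjusted p = 0.0058).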
